A study of Mus musculus with 48 samples.

Results

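The 10 genes described here belong to the circadian clock and were measured in the cerebral cortex of 48 mice aged 6 months. They were taken by their gene symbols in the count and FPKM tables: Arntl, Clock and Npas2, Per1, Per2 and Per3, Cry1 and Cry2, Nr1d1, and Dbp. All 10 were found among the 48795 genes of the tables, and all 10 were among the 20010 genes with enough reads to be tested. The mice carried the labels Q140 x Msh3-/- (8 mice), Msh3-/- (8), Q140 x Msh3+/- (8), Msh3+/- (9), Q140 (8) and wild type (WT, 7). The Q140 knock-in puts a long CAG repeat into the mouse huntingtin gene (Htt) and is used to model Huntington's disease; wherever it is present the labels give it as heterozygous. Msh3 encodes a DNA mismatch repair protein, and the labels give it as heterozygous or homozygous for an altered allele. All mice, controls included, are listed under a C57BL/6 background. Msh3+/- held 4 males and 5 females, WT 4 males and 3 females, and each other group 4 of each sex. Each library is labelled as a separate mouse. The labels used here give no hour of dissection, light schedule or day of collection.

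The circadian clock is a feedback loop of transcription factors found in nearly every mammalian cell. BMAL1, the product of Arntl, pairs with CLOCK or with its forebrain-enriched relative NPAS2, binds E-box sequences and switches on the Per, Cry, Nr1d1 and Dbp genes. PER and CRY proteins return to the nucleus and block that activation, while REV-ERB alpha, the product of Nr1d1, represses Arntl and DBP activates genes through D-box sequences. In mouse tissues collected around the clock, Arntl and Npas2 transcripts peak in antiphase to Nr1d1 and Dbp, and Per and Cry transcripts peak after Nr1d1 and Dbp. In cortex, Per1 is in addition an activity-induced gene.

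The genes lie on 7 chromosomes. On GRCm38, by GENCODE M21, the activators are Arntl (chr7:113207465-113314126, plus strand), Clock (chr5:76209868-76304792, minus) and Npas2 (chr1:39193731-39363236, plus). The period genes are Per1 (chr11:69095217-69109960, plus), Per2 (chr1:91415982-91459324, minus) and Per3 (chr4:151003652-151044665, minus). The others are Cry1 (chr10:85131700-85185064, minus), Cry2 (chr2:92403646-92434043, minus), Nr1d1 (chr11:98767932-98775333, minus) and Dbp (chr7:45705088-45710203, plus). All 10 are annotated as protein coding. In the RefSeq promoter table (GRCm38.p6), 9 of the 10 genes had an entry, with 13 transcription starts. The 250 bases before each start were searched on both strands for CACGTG (the E-box), CACGTT (an E-box variant), TTATGTAA (the D-box), AGGTCA (the core bound by REV-ERB and ROR proteins) and TGACGTCA (the cAMP response element). A match to any of these sequences at any start was present for 6 of the 9 genes. The share of all genes with any such match was not counted. The 5 promoters shown are those of repressor genes that hold a match and that moved together or in opposition over the mice, with every match in capitals:

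Per1 first start (chr11:69098699-69098948, plus strand): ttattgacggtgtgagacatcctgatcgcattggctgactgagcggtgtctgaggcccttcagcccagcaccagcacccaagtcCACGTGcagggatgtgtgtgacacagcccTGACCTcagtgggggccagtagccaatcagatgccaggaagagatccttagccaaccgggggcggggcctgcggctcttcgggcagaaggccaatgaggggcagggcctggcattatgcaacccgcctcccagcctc
Cry1 (chr10:85185055-85185304, minus strand): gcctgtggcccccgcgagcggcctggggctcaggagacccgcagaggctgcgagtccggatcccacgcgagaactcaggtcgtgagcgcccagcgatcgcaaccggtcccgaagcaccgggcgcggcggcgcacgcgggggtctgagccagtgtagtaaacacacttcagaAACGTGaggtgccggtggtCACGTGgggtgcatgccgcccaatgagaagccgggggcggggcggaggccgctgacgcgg
Cry2 (chr2:92434070-92434319, minus strand): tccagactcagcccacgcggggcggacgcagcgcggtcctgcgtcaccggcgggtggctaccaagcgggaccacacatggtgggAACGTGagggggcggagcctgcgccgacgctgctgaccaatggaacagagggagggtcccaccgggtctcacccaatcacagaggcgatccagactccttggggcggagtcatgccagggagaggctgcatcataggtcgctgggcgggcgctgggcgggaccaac
Nr1d1 (chr11:98775378-98775627, minus strand): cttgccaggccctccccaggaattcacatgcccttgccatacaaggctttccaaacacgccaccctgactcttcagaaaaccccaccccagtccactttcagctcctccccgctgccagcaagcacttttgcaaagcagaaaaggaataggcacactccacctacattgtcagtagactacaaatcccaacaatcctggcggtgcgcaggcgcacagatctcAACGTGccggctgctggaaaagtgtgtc
Per3 (chr4:151044666-151044915, minus strand): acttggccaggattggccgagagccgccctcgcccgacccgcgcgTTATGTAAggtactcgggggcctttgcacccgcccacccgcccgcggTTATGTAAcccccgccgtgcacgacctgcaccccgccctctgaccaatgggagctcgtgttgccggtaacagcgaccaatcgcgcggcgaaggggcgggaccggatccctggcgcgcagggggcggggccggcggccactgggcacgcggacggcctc

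The capitals mark, in Per1, the E-box starting 166 bases before the start and an AGGTCA on the other strand at 137. In Cry1 they mark an E-box variant on the other strand at 79 and the E-box at 60. Cry2 has an E-box variant on the other strand at 166 and Nr1d1 has another at 28. Per3 has D-boxes at 205 and 158 bases before the start, both on the strand of the gene. The sixth gene with a match is Clock, whose start farthest downstream has an AGGTCA on the other strand at 119. None of the matches overlap. Of all 32851 promoters of the table, 6.02% hold CACGTG in the same 250 bases, 3.85% CACGTT, 0.819% TTATGTAA, 14% AGGTCA and 1.55% TGACGTCA. A match is a run of letters and not a shown binding site, and no relation of the matches to the levels or correlations was tested.

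The libraries held between 35.9 M and 64.5 M counted reads, with a mean of 46.5 M. Msh3 separated the labelled Msh3 classes without overlap, but its reads were higher with altered alleles: 99.1 to 125 CPM (counts scaled to library size) in mice labelled Msh3-/- with or without Q140, 61.2 to 77.4 CPM in Msh3+/- and 21.8 to 25.9 CPM with unaltered Msh3. The level over the whole gene therefore runs against a loss of transcript, and the Msh3 groups are named by their labels. Abhd1, a gene on the same chromosome as Htt, was 5.23 to 7.66 CPM in 20 of the 24 Q140-labelled libraries and 2.15 to 3.61 CPM in the 24 libraries without Q140. The other 4 Q140-labelled libraries (Q140 x Msh3+/- male 2, Q140 x Msh3-/- females 1, 3 and 4) had 2.62 to 3.63 CPM, so comparisons were repeated without them. Cortical neuron markers were present, with summed FPKM of 5 excitatory neuron genes at 939 to 1120 and of 6 striatal neuron genes at 39.4 to 56.9. In 3 libraries Ttr, a choroid plexus gene, was 106 to 1090 CPM, against at most 9.17 CPM in the other 45. The 3 were Msh3-/- females 3 and 4 and WT male 3, and comparisons were repeated without them as well. WT male 3 was also the highest of the 48 mice in Per1 (350 CPM), Per2 (122 CPM) and Cry2 (209 CPM). Another 3 libraries lay away from the rest on component 2 of a principal component analysis over all genes: Q140 x Msh3-/- male 4, Msh3+/- male 2 and Q140 male 1.

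On a per-length scale, Nr1d1, Per1, Dbp and Cry2 were the most abundant of the 10 genes. Over the 48 mice, Nr1d1 averaged 67.3 ± 9.40 FPKM (SD), Per1 37.1 ± 9.71, Dbp 30.7 ± 3.48 and Cry2 28.2 ± 1.94. Per2 averaged 13.8 ± 2.84 FPKM, Npas2 11.6 ± 1.05, Clock 9.09 ± 0.476 and Per3 8.61 ± 0.799. Cry1, with 6.10 ± 0.795, and Arntl, with 5.56 ± 0.419 FPKM, were lowest. Even Cry1, the gene with the fewest reads, had at least 564 counts in every library. Levels here are of whole tissue, in which fewer cells of a type and less RNA per cell cannot be told apart.

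The genes varied very differently from mouse to mouse. Per1 spanned 119 to 350 CPM, a 2.95-fold range, and Per2 43.4 to 122 CPM, a 2.81-fold range. Nr1d1 and Cry1 each spanned 1.86-fold and Dbp 1.63-fold. The activators were narrower: Npas2 spanned 1.49-fold, Arntl 1.41-fold and Clock 1.36-fold, with Per3 at 1.44-fold and Cry2 at 1.38-fold. Within genotype and sex the SD of log2 CPM was 0.338 for Per1, 0.302 for Per2 and 0.212 for Nr1d1. Among tested genes within 1 log2 unit of their own level, 99.8%, 99.5% and 98.9% had a smaller SD than Per1, Per2 and Nr1d1 did, in that order. For Clock, with an SD of 0.0785, that share was 59.2%.

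**Figure D1:**
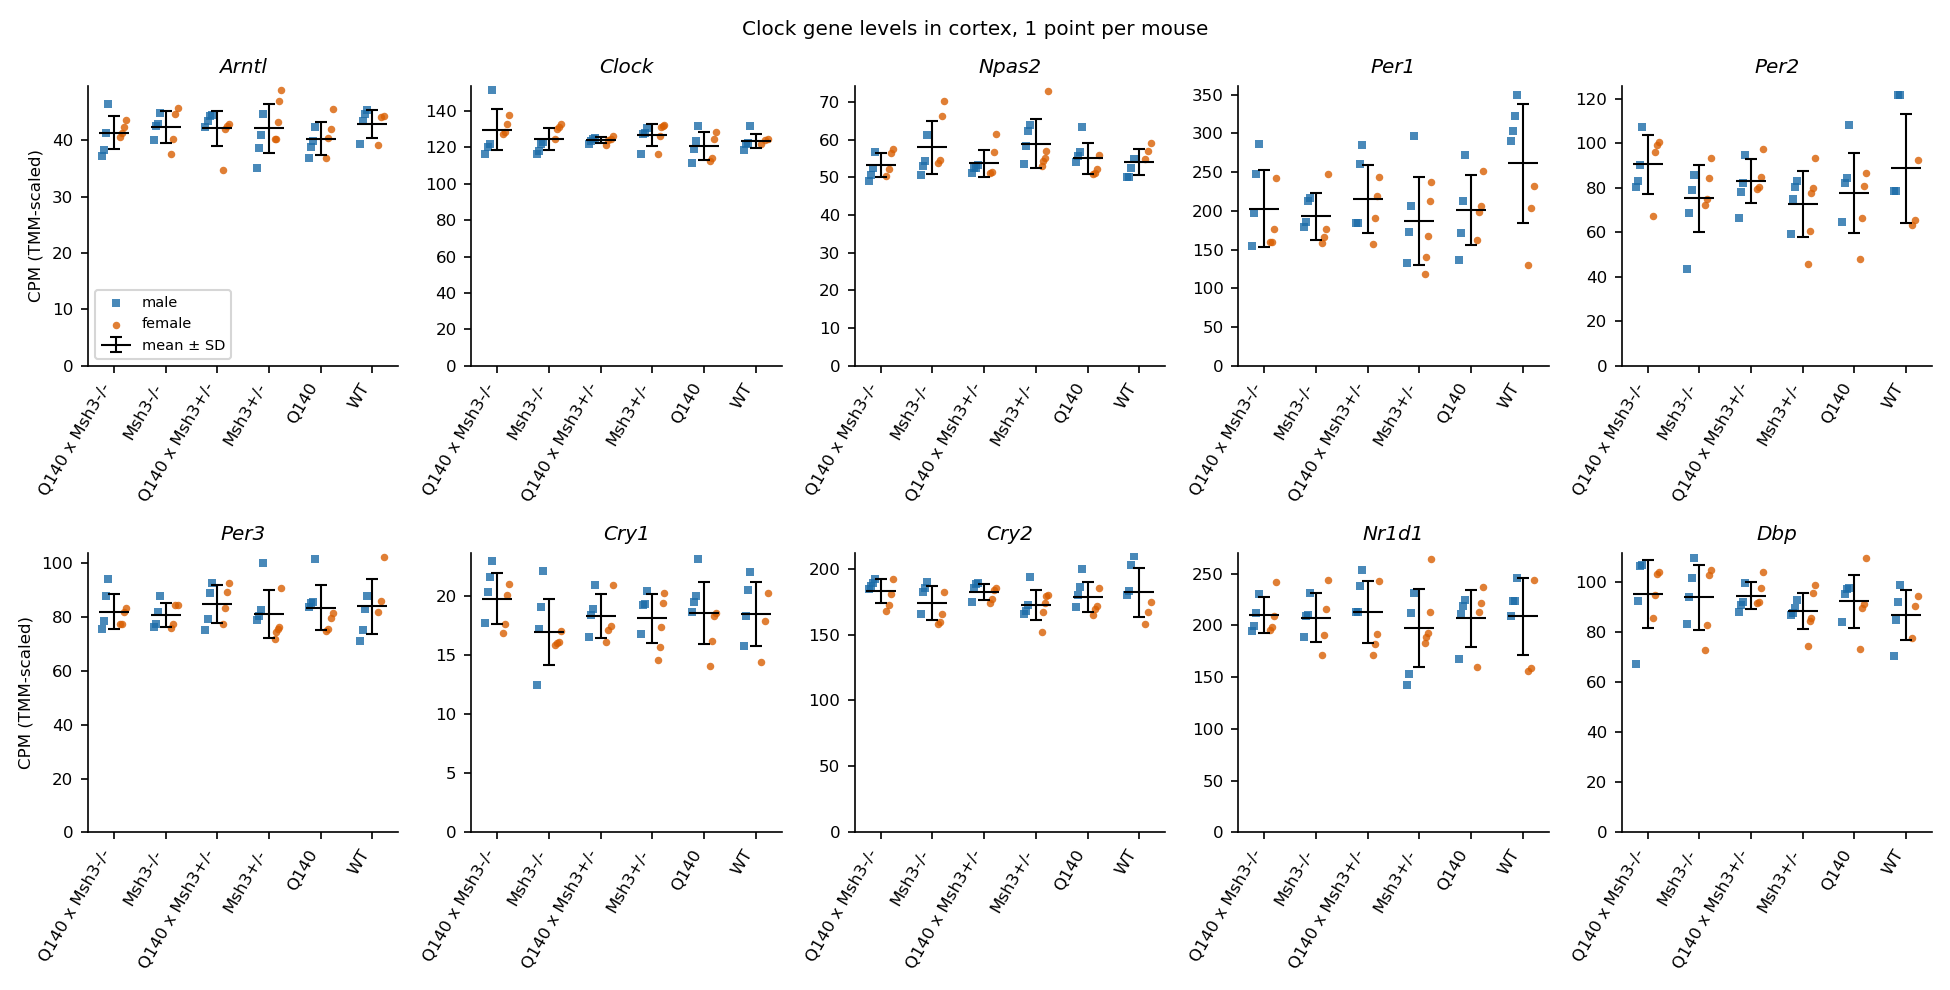
Level of each of the 10 clock genes in CPM (vertical axis, from 0) by labelled genotype, with 1 point per mouse, squares for males and circles for females, and the group mean ± SD as black bars. The groups overlap for every gene, and Per1 and Per2 spread widest, with the 4 WT males high in Per1.

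Genotype was compared first for the activator arm. Arntl averaged 40.3 ± 2.92 CPM in Q140 mice (n = 8) and 42.9 ± 2.55 in WT (n = 7), the lowest and the highest of the 6 group means. Clock averaged 129 ± 11.3 CPM in Q140 x Msh3-/- mice and 121 ± 7.61 in Q140 mice, again the ends of the order. Npas2 lay between 53.2 ± 3.26 CPM in Q140 x Msh3-/- and 59.0 ± 6.48 in Msh3+/- mice. None of these genes differed between neighbouring groups in the order by more than the smaller of their SDs. The smallest p-values were those of Clock in Q140 x Msh3-/- against Q140, with a log2 fold change of 0.10 ± 0.04 (SE, unadjusted p = 0.0110, adjusted p = 0.415), and of Npas2 in Q140 x Msh3+/- against Msh3+/- (-0.13 ± 0.06, unadjusted p = 0.0260, adjusted p = 0.780). Npas2 had -0.12 ± 0.06 in Q140 x Msh3-/- against Msh3-/- (adjusted p = 0.725) and 0.12 ± 0.06 in Msh3+/- against WT (adjusted p = 0.521). None of these passed.

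In the repressor arm, Per1 had the widest group means and the only gap between neighbours in the order larger than a group SD. It averaged 203 ± 49.5 CPM in Q140 x Msh3-/- mice, 193 ± 30.1 CPM in Msh3-/- mice, 216 ± 44.1 CPM in Q140 x Msh3+/- mice, 187 ± 57.1 CPM in Msh3+/- mice, 201 ± 45.2 CPM in Q140 mice and 261 ± 77.0 CPM in WT mice. WT stood 45.7 CPM above the next group. The 4 Q140 males had 171, 137, 212 and 272 CPM and the 4 Q140 females 206, 251, 199 and 162, against 322, 290, 350 and 303 CPM in the 4 WT males and 204, 130 and 232 in the 3 WT females. All 4 WT males were thus above every Q140 mouse, while the WT females lay among them. Per1 was at -0.33 ± 0.16 on the log2 scale in Q140 against WT (unadjusted p = 0.0492, adjusted p = 0.909), -0.44 ± 0.16 in Msh3+/- against WT (0.00920 and 0.400) and -0.40 ± 0.16 in Msh3-/- against WT (0.0187 and 0.848). These 3 comparisons share the WT mice, and none passed. In females alone the Q140 value was 0.12, and in males alone -0.67 (adjusted p = 0.983 and 0.470). The mean level of 17 immediate early genes, which neuronal activity induces, was 5.98 to 6.23 log2 CPM in the WT males and 4.62 to 5.29 in the WT females; its part in the Per1 values was not tested.

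Per2 averaged 90.5 ± 13.1 CPM in Q140 x Msh3-/- and 75.2 ± 15.1 in Msh3-/- mice, a log2 fold change of 0.27 ± 0.14 (adjusted p = 0.739). In Q140 against WT mice Per2 averaged 77.7 ± 18.1 and 88.8 ± 24.4 CPM (-0.19 ± 0.15, adjusted p = 0.943). The Q140 effect in Msh3-/- mice minus that with unaltered Msh3 was therefore 0.45 ± 0.20 (unadjusted p = 0.0292, adjusted p = 0.922), and for Per1 the corresponding difference with Msh3+/- was 0.53 ± 0.23 (0.0242 and 0.729). Per3 had group means of 80.8 to 84.9 CPM. Cry1 averaged 19.8 ± 2.18 CPM in Q140 x Msh3-/- and 17 ± 2.81 in Msh3-/- mice (0.22 ± 0.08, unadjusted p = 0.0119, adjusted p = 0.685), and Cry2 183 ± 8.98 and 174 ± 12.8 CPM (0.08 ± 0.04, adjusted p = 0.738). Nr1d1 averaged 207 ± 27.6 CPM in Q140 and 209 ± 37.4 in WT mice (-0.01 ± 0.10, adjusted p = 0.996).

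Dbp, the output gene, averaged 92.3 ± 10.7 CPM in Q140 and 86.9 ± 10 in WT mice (0.09 ± 0.08, adjusted p = 0.950). Its highest group mean was 95.1 ± 13.5 CPM, in Q140 x Msh3-/-. Exons of Dbp share 539 bases, 18% of its exonic length, with Sphk2 on the other strand, and Nr1d1 shares 263 bases (8.55%) with Thra. The kit marks strand, but whether the counting used it is not given in the sources used here. Sphk2 averaged 23.8 CPM, and over the mice its r with Dbp was -0.43 after genotype and sex means were removed; Thra averaged 541 CPM with an r of -0.045 with Nr1d1.

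By edgeR's quasi-likelihood test, 0 of the 10 clock genes passed in any genotype comparison. At an unadjusted p under 0.05 there was 1 gene in Q140 against WT, 1 in Q140 x Msh3+/- against Msh3+/-, 2 in Q140 x Msh3-/- against Msh3-/-, 2 in Msh3+/- against WT, 1 in Msh3-/- against WT, 0 in Q140 x Msh3+/- against Q140 and 1 in Q140 x Msh3-/- against Q140. The share of all tested genes at that p was, in the same order, 5.48%, 6.2%, 6.8%, 9.5%, 5.73%, 5.14% and 9.07%. DESeq2 and limma also called 0. Of all tested genes, 0.01% were called in Q140 against WT, 0.015% in Q140 x Msh3+/- against Msh3+/-, 0% in Q140 x Msh3-/- against Msh3-/-, 0.025% in Msh3+/- against WT, 0.035% in Msh3-/- against WT, 0.02% in Q140 x Msh3+/- against Q140 and 0.045% in Q140 x Msh3-/- against Q140. Both differences between Q140 effects called 0% of genes. With so few calls anywhere, a count of 0 among 10 genes says nothing particular to the clock. The median log2 fold change of the 10 genes in Q140 against WT was -0.015, beside 0.0019 over all genes tested, and 3 of the 10 were above 0. In Q140 x Msh3-/- against Msh3-/- it was 0.0388, with 8 of 10 above 0, beside -0.0026 over all genes. In Q140 x Msh3+/- against Msh3+/- it was 0.0689, also with 8 of 10 above 0. The count was 8 in Q140 x Msh3+/- and in Q140 x Msh3-/- against Q140, and 3 in Msh3+/- and in Msh3-/- against WT. Several of the 10 genes move together over the mice, so these counts are not of separate observations. The share of all genes above 0 was not counted.

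A list of 25 further genes of the clock pathway, all tested, also had 0 calls in every comparison. In Q140 against WT the smallest p-values were those of Nfil3, a D-box repressor (-0.37 ± 0.15, adjusted p = 0.892), and Csnk1d, a kinase of PER proteins (-0.06 ± 0.03, adjusted p = 0.892). In Q140 x Msh3-/- against Msh3-/- they were Bhlhe41, an E-box repressor (0.27 ± 0.08, unadjusted p = 0.00119, adjusted p = 0.671), and Hlf, a D-box activator (0.14 ± 0.06, adjusted p = 0.702). In Q140 x Msh3+/- against Msh3+/- mice Btrc, a subunit of a PER ubiquitin ligase, was at -0.08 ± 0.04 (adjusted p = 0.780). Wee1, a cell cycle kinase, and Rora, an activator of Arntl, led Msh3+/- against WT (0.12 ± 0.04 and 0.14 ± 0.05, adjusted p = 0.356 and 0.369). Csnk1d and Nfil3 led Msh3-/- against WT (-0.07 ± 0.03 and -0.33 ± 0.14, adjusted p = 0.848 for both), against the same WT mice. With Q140 mice as the shared controls, Rorb, a relative of Rora, was at 0.15 ± 0.07 in Q140 x Msh3+/- mice (adjusted p = 0.960) and Wee1 at 0.10 ± 0.04 in Q140 x Msh3-/- mice (adjusted p = 0.481). For the differences between Q140 effects, Csnk1d and Nfil3 led with Msh3+/- (0.07 ± 0.04 and 0.33 ± 0.20, adjusted p = 0.771 and 0.795). Csnk1d and Bhlhe40, an E-box repressor, led with Msh3-/- (0.08 ± 0.04 and 0.41 ± 0.20, adjusted p = 0.922 for both).

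Sex was compared over all genotypes, with 24 mice of each sex. Cry2, which encodes a repressor of CLOCK and BMAL1, was higher in males. It ranged from 165 to 209 CPM with a median of 185 in males, against 152 to 192 CPM with a median of 173 in females, so the ranges overlapped. The log2 fold change was 0.09 ± 0.02 (SE), a 1.07-fold difference (adjusted p = 0.0129). The male mean was higher in 6 of 6 genotypes, by most in WT (194 ± 14.6 against 167 ± 8.30 CPM) and by least in Q140 x Msh3+/- (184 ± 6.6 against 180 ± 5.25). Only in WT were all males above all females. Without the 4 Q140-labelled libraries low in Abhd1 the value was 0.09 and the call was lost (adjusted p = 0.0517). It was 0.07 in mice with Q140 alone and 0.12 in mice without Q140 alone, and neither passed (adjusted p = 0.527 and 0.0848).

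Cry1 and Per1 did not pass in this comparison. Cry1 was 12.4 to 23.2 CPM (median 19.3) in males and 14.1 to 21.1 CPM (median 17.3) in females, 0.14 ± 0.05 on the log2 scale (adjusted p = 0.0839), with the male mean higher in 6 of 6 genotypes. Per1 was 133 to 350 CPM (median 213) in males and 119 to 251 CPM (median 184) in females, 0.22 ± 0.09 (adjusted p = 0.148), with the male mean higher in 5 of 6. The other 7 genes lay between -0.04 and 0.06. In all, 1 of 10 clock genes was called, against 5.56% of all tested genes; at an unadjusted p under 0.05 there were 3 clock genes, against 20.7% of all genes. The median log2 fold change of the 10 genes was 0.0408, with 7 of 10 above 0, beside 0.0019 over all genes. Of the 25 further pathway genes 0 passed, with Tef, a D-box activator related to Dbp, at 0.07 ± 0.03 (adjusted p = 0.130) and Sirt1, a deacetylase, at 0.07 ± 0.03 (adjusted p = 0.140). The immediate early gene mean was 5.49 ± 0.62 log2 CPM in males and 5.11 ± 0.41 in females (SD over mice), and its part in these values was not tested.

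**Figure D2:**
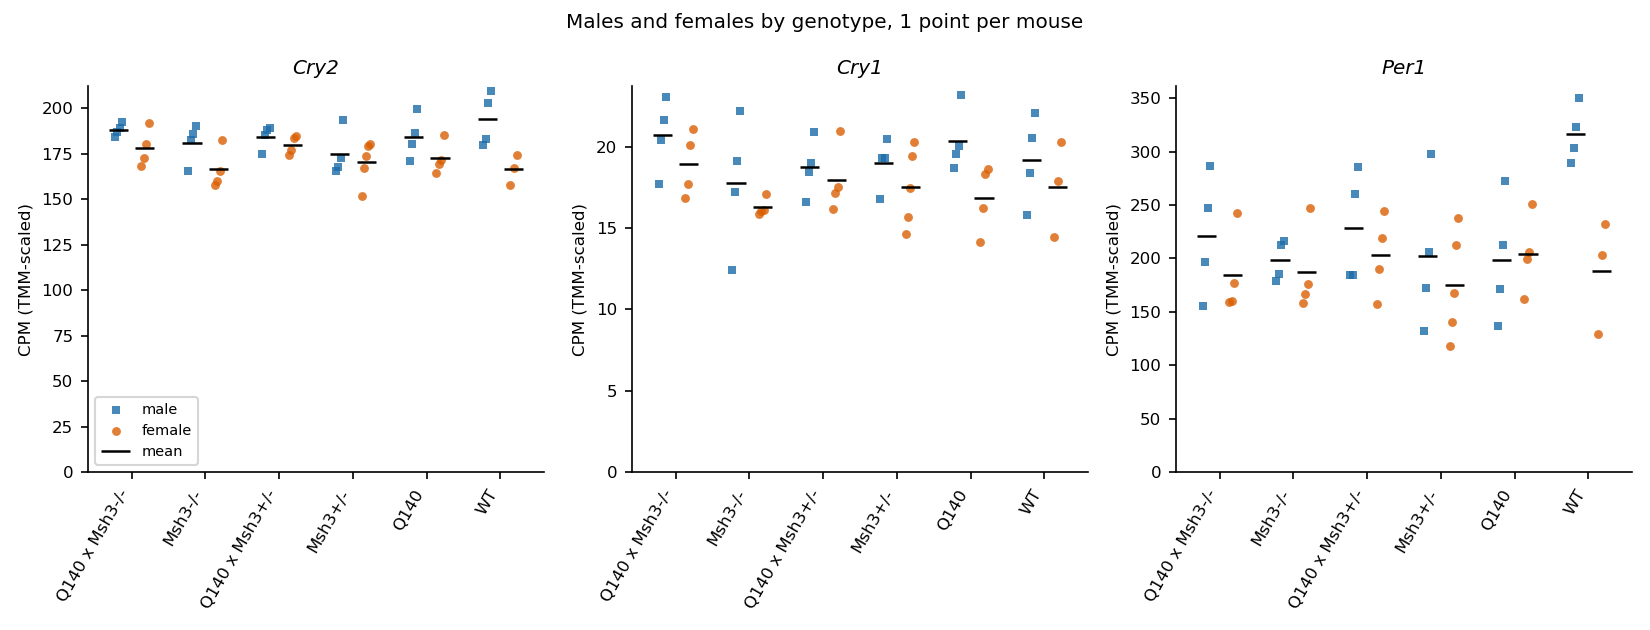
Levels of Cry2, Cry1 and Per1 in CPM (vertical axes, from 0) by genotype, with males as squares to the left of females as circles, 1 point per mouse and a black line at each mean. The male mean of Cry2 and of Cry1 is above the female mean in 6 of 6 genotypes, with all males above all females in 1 genotype for each gene, and the 4 WT males have the highest Per1 mean.

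A difference of the sex effect between genotypes was tested directly. The Q140-by-sex term was shared by all mice with Q140, whatever their Msh3 label. The gap between the sexes in Q140 against WT alone, as given for Per1 above, was not tested by itself. The difference of the Q140 effect between the sexes (males minus females) passed for 0 clock genes (0% of all genes; 0 clock genes and 4.48% of all genes at an unadjusted p under 0.05), and was -0.19 ± 0.18 for Per1. Over the 5 genotype-by-sex terms 0 clock genes passed (0% of all genes), with 1, Per3, at an unadjusted p under 0.05 (0.0471, adjusted p = 0.928), against 4.85% of all genes. Of the further pathway genes, Timeless was at 0.15 ± 0.08 for the Q140 effect (adjusted p = 0.986), and Csnk1d and Sirt1 had the smallest p for the genotype-by-sex terms, both with adjusted p = 0.928.

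Although the groups barely differed, the clock genes moved together from mouse to mouse. After the mean of each genotype and sex was subtracted from log2 CPM, 16 of the 45 pairs of clock genes were correlated at an adjusted p under 0.05 (permutation test of mice within genotype and sex, Benjamini-Hochberg over the 45 pairs), 8 positively and 8 negatively. The weakest of these had an r of 0.408 in size. Of the 45 clock gene pairs 35.6% reached that size, against 6.38% of the 200190045 pairs of all tested genes. The latter include genes with few reads and were not matched to the clock genes in level or spread. By Spearman's rho 15 of the 16 also passed, the exception being Cry2 and Nr1d1, and all 16 had an unadjusted p under 0.05 without the 2 mice farthest from the median of the first gene. All 16 had the same sign in males and in females. In 15 of the 16 the sign was also the same in each of the 6 plate columns of 8 mice each, the exception being Arntl and Clock with 5 of 6. The 16 pairs were picked by their r in these same mice, so agreement within parts of them is largely built in. It is no separate support. The permutations treat the mice of a genotype and sex as exchangeable. Pairs of mice that share the stem of their column name were closer than other pairs in each clock gene except Clock, with a mean difference of 0.141 against 0.214 log2 units in Nr1d1, 0.089 against 0.114 in Npas2, 0.0843 against 0.113 in Arntl and 0.142 against 0.177 in Dbp. Over the 28 pairs sharing a stem, the deviations of both mice correlated at 0.617 in Nr1d1, 0.532 in Npas2, 0.499 in Arntl and 0.431 in Dbp. The other genes lay between -0.169 (Clock) and 0.329 (Per3). Over all tested genes the stem, fitted as a random block, had a consensus correlation of 0.104 to 0.115 between mice. That is another measure, so the values are not directly comparable. How many of all genes were closer by stem was not counted, so this closeness is not shown to be particular to the clock. The part of the stem in the clock gene correlations and their p-values was not tested. All correlations below are over 48 mice, and the smallest p that 100000 permutations can give is 1e-05.

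**Figure D3:**
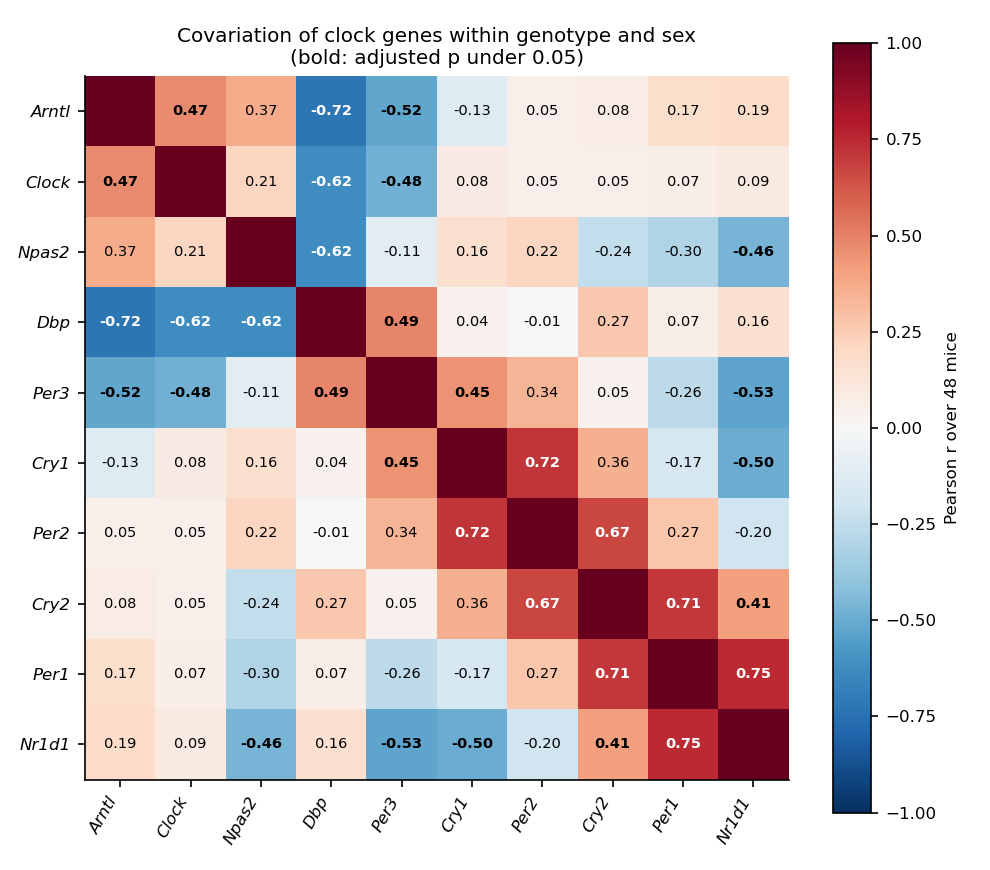
Pearson r (colour scale from -1 to 1, printed in each cell) between the 10 clock genes over 48 mice after genotype-by-sex means of log2 CPM were removed, in bold where the adjusted p is under 0.05. Dbp opposes the 3 activators (-0.72, -0.62 and -0.62) at the upper left, a chain of positive cells runs from Cry1 and Per2 through Cry2 and Per1 to Nr1d1 along the diagonal, and its ends, Cry1 and Nr1d1, have opposite signs (-0.50).

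The output gene Dbp moved against the activators. Dbp and Arntl had r = -0.72 (permutation p = 1e-05, adjusted p = 0.000150) and rho = -0.76 (permutation p = 1e-05), with r = -0.75 without the 2 mice farthest in Arntl. In 36 of 48 mice Dbp and Arntl lay on opposite sides of their means, and r was -0.74 in males and -0.70 in females. The mouse lowest in Dbp relative to its group, Q140 x Msh3-/- male 4, had 67.3 CPM of Dbp with 46.5 of Arntl and 152 of Clock, and was the highest in both. The mouse highest in Dbp, Q140 female 1, had 110 CPM of Dbp with 37.0 of Arntl and 112 of Clock. Dbp and Clock had r = -0.625 (adjusted p = 0.00287; rho = -0.51, adjusted p = 0.00702), and r = -0.51 without the 2 farthest mice. Dbp and Npas2 had r = -0.62 (adjusted p = 0.000360; rho = -0.49, adjusted p = 0.0133), and r = -0.55 without the 2 farthest. Arntl and Clock rose and fell together with r = 0.47 (adjusted p = 0.0186; rho = 0.445), whereas Arntl and Npas2, at 0.37, did not pass (adjusted p = 0.102). Nr1d1 was at r = 0.19 with Arntl (adjusted p = 0.468) and at r = 0.16 with Dbp (adjusted p = 0.434), and neither passed.

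Per1 and Nr1d1 had the largest Pearson r of the 45 pairs, although by rho and without the 2 farthest mice Arntl and Dbp were larger in size. Their r was 0.75 (permutation p = 1e-05, adjusted p = 0.000150) and their rho 0.73 (permutation p = 1e-05), with r = 0.72 without the 2 farthest mice and 0.68 to 0.84 within plate columns. In 38 of 48 mice the genes lay on the same side of their means. The mouse highest in Per1 relative to its group, Msh3+/- male 3, had 297 CPM of Per1 and 232 of Nr1d1, and the lowest, Msh3+/- male 1 of the same group, had 133 and 153 CPM. Per1 also moved with Cry2 (r = 0.71, adjusted p = 0.000150; rho = 0.71; r = 0.65 without the 2 farthest), in 38 of 48 mice on the same side. Cry2 and Nr1d1 were at r = 0.41 (adjusted p = 0.0393), which did not pass by rho (0.36, adjusted p = 0.0752).

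Per2 moved with both cryptochrome genes. Per2 and Cry1 had r = 0.72 (permutation p = 2e-05, adjusted p = 0.000225) and rho = 0.69 (permutation p = 6e-05), with r = 0.64 without the 2 farthest mice, and lay on the same side in 39 of 48 mice. Msh3-/- male 4 was the lowest in both relative to its group, with 43.4 CPM of Per2 and 12.4 of Cry1. Per2 and Cry2 had r = 0.67 (adjusted p = 0.000375; rho = 0.65; r = 0.59 without the 2 farthest). Per2 did not pass with Per1 (r = 0.27), with Nr1d1 (r = -0.20) or with Dbp (r = -0.01). Per2 and Per3 were at 0.34 (adjusted p = 0.0813).

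Cry1 and Per3 moved against Nr1d1. Cry1 and Nr1d1 had r = -0.50 (adjusted p = 0.00287; rho = -0.55; r = -0.49 without the 2 farthest mice). Per3 and Nr1d1 had r = -0.53 (adjusted p = 0.00503; rho = -0.55; r = -0.48 without the 2 farthest), on opposite sides in 36 of 48 mice. Per3 was positive with Cry1 (r = 0.45, adjusted p = 0.0138; rho = 0.42) and with Dbp (r = 0.49, adjusted p = 0.00435; rho = 0.49), and negative with Arntl (r = -0.52, adjusted p = 0.00503; rho = -0.52) and Clock (r = -0.48, adjusted p = 0.00964; rho = -0.375). The last of the 16 pairs was Npas2 and Nr1d1, at r = -0.46 (adjusted p = 0.0160; rho = -0.46). Some of these r were uneven between the sexes. Per3 and Nr1d1 were at -0.729 in males and -0.352 in females, and Per3 and Dbp at 0.632 and 0.313. Npas2 and Nr1d1 were at -0.245 and -0.579. The other pairs of this paragraph were closer between the sexes, and the differences were not tested.

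**Figure D4:**
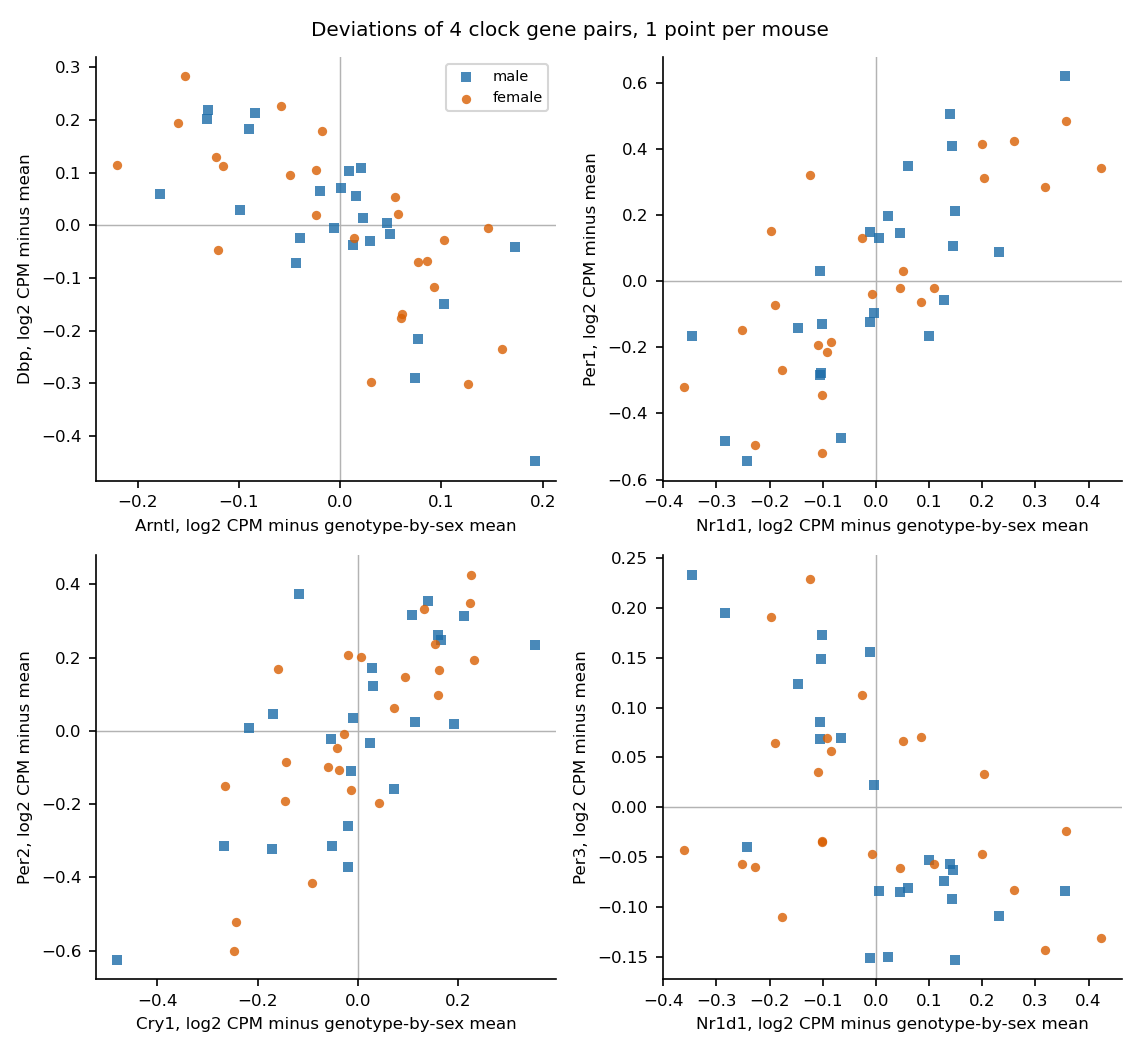
Deviation of log2 CPM from the mean of the mouse's genotype and sex for 4 gene pairs, with males as squares and females as circles, 1 point per mouse and lines at 0. Dbp falls as Arntl rises (r = -0.72), Per1 rises with Nr1d1 (r = 0.75), Per2 rises with Cry1 (r = 0.72) and Per3 falls as Nr1d1 rises (r = -0.53).

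The pattern had 3 main directions. Principal components of the 10 scaled deviations held 30.1%, 27.3% and 23.7% of the variance, 81.1% together. The first set Per3 (loading 0.49) and Dbp (0.46) against Arntl (-0.46) and Clock (-0.38). The second set Nr1d1 (0.53), Per1 (0.51) and Cry2 (0.39) against Npas2 (-0.41), and the third was carried by Per2 (0.60), Cry1 (0.47) and Cry2 (0.46). The share that 3 components hold for other sets of 10 genes was not computed. The 3 shares here were close to each other, so the split of genes between the components may not be stable. Fitted apart, the first 3 components held 83.0% in the 24 males (39.1%, 26.1% and 17.8%) and 82.2% in the 24 females (37.3%, 25.8% and 19.2%). The loadings were not compared between the sexes, so the same directions are not shown to recur in each. With no hour of dissection in the labels, an order of these directions in time of day cannot be given.

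The further clock pathway genes took up places along the same directions, given here as r over 48 mice without a test. Tef, which like Dbp encodes a D-box activator, was at 0.75 with Dbp, 0.73 with Per3 and -0.60 with Arntl. Usp2, a deubiquitinase, was at 0.70 with Dbp and -0.63 with Arntl, and Ciart, a repressor of BMAL1 and CLOCK, at 0.61 with Dbp, -0.60 with Arntl and 0.52 with Per1. Bhlhe40 was at 0.82 with Per1, 0.71 with Nr1d1 and 0.67 with Cry2. Nfil3, the D-box repressor, was at -0.52 with Dbp, 0.50 with Arntl and 0.63 with Per1. Cipc, an inhibitor of CLOCK, was at 0.64 with Nr1d1, Hlf at 0.57 with Cry1, and Tipin, a replication fork protein that binds TIMELESS, at -0.67 with Per2. Nr1d2, the relative of Nr1d1 that encodes REV-ERB beta, was at 0.44 with Dbp and -0.44 with Arntl but at -0.07 with Nr1d1. With Dbp, Timeless, Wee1, Rora and Tipin had r between -0.094 and 0.106.

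**Figure D5:**
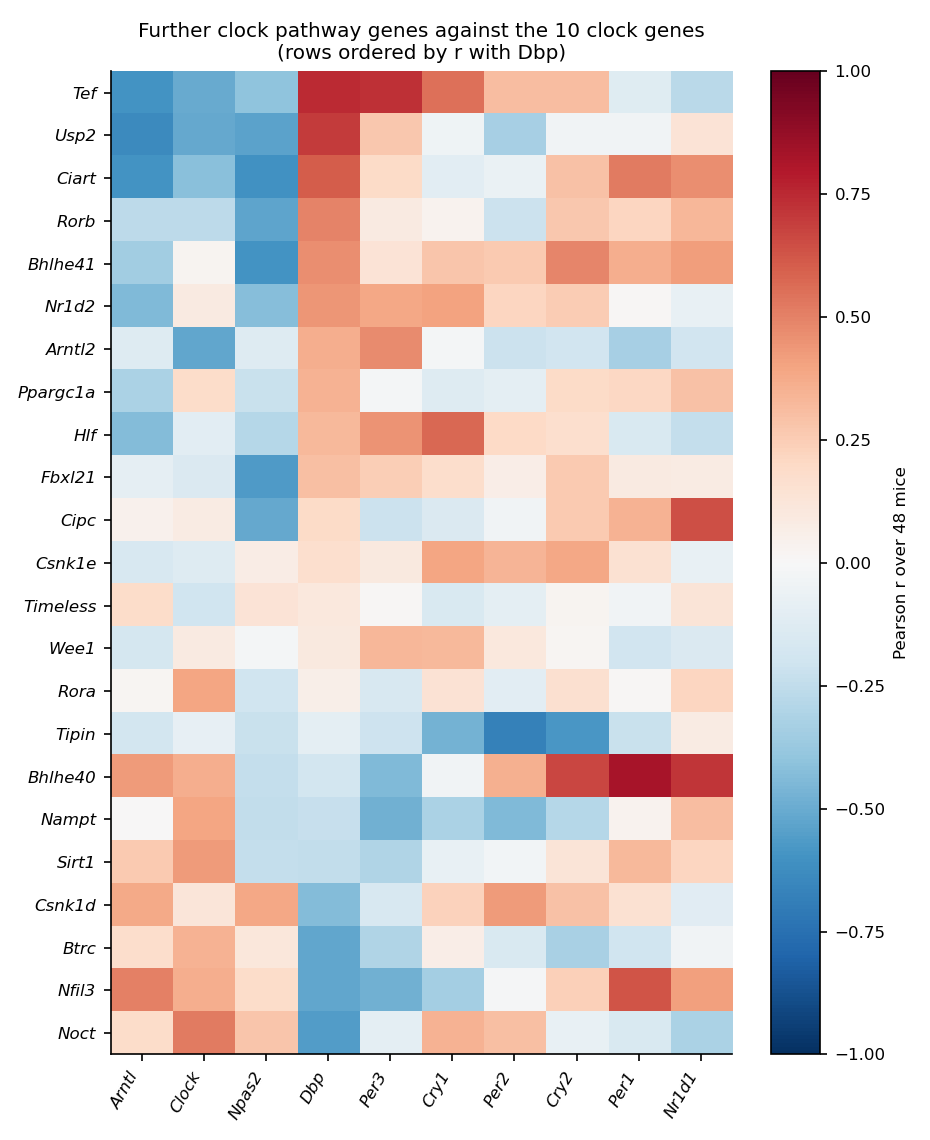
Pearson r (colour scale from -1 to 1) of further clock pathway genes, in rows ordered by their r with Dbp, with the 10 clock genes in columns, over 48 mice after genotype-by-sex means of log2 CPM were removed. Tef, Usp2 and Ciart head the rows with r of 0.75, 0.70 and 0.61 with Dbp, and Bhlhe40 stands out in the Per1 column with 0.82.

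Among all tested genes outside both lists, those most like Dbp over the 48 mice were Hrh3, the histamine H3 receptor (r = 0.82), Coq8a, a coenzyme Q biosynthesis gene (0.78), Dhdh (0.76), Hhipl1 (0.76), Phyhip (0.75), Acox3, a peroxisomal oxidase (0.75), Gas6, a ligand of TAM receptors (0.74), and Sun2, a nuclear envelope protein (0.73). The lowest were Bhlhb9 (-0.77), Atp2c1, a Golgi calcium pump (-0.74), Stt3b (-0.73) and Rps6ka3, a ribosomal S6 kinase (-0.72). Those most like Arntl were Rps6ka3 (0.74), Numb (0.73), Map4k4 (0.72), Cd93 (0.72), Ubtf (0.70), Lig3 (0.69), Rcc2 (0.69) and Msl1 (0.68), and the lowest were Htr1a, a serotonin receptor (-0.74), Mthfd1l (-0.71), Zfp775 (-0.71) and Ccne2 (-0.69). Hrh3 was at -0.65 with Arntl, and Rps6ka3 thus stood at the Arntl end and opposite to Dbp.

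Lists of genes outside the clock moved with some of these deviations. Of 120 relations between the 10 genes and 11 list means or the library total, 8 passed at an adjusted p under 0.05 (permutation test, Benjamini-Hochberg over the 120). How many of all tested genes move with these means was not counted, so the 8 are not shown to be particular to the clock. The mean of 17 immediate early genes was at r = 0.84 with Per1 (adjusted p = 0.000400; rho = 0.84; r = 0.82 without the 2 mice farthest in the list mean), 0.57 with Nr1d1 (adjusted p = 0.00150; rho = 0.62; r = 0.54 without) and 0.47 with Cry2 (adjusted p = 0.0429; rho = 0.47; r = 0.42 without). The mean of 11 glucocorticoid-responsive genes was at -0.73 with Nr1d1 (adjusted p = 0.000400; rho = -0.74; r = -0.74 without), 0.65 with Per3 (adjusted p = 0.000400; rho = 0.65; r = 0.70 without), 0.58 with Cry1 (adjusted p = 0.00480; rho = 0.61; r = 0.64 without) and 0.53 with Per2 (adjusted p = 0.00264; rho = 0.56; r = 0.59 without). The mean of 6 endothelial and mural genes was at 0.54 with Arntl (adjusted p = 0.00720; rho = 0.56; r = 0.51 without); these 6 genes summed to 40.9 to 55.1 FPKM over the mice. Within plate columns these 8 relations kept their sign except Per2 with the glucocorticoid-responsive mean, at -0.219 to 0.743. Cry2 with the immediate early mean was at 0.231 in males and 0.833 in females, a difference that was not tested. The library total passed with 0 of the 10 genes, and so did the means of cold and heat responsive genes, excitatory neurons, interneurons, astrocytes, oligodendrocytes, microglia, choroid plexus and striatal neurons. The part of these lists in the clock gene correlations was not tested.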

How the data were processed

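Cortex RNA of 48 mice was sequenced, 1 library per mouse. Per the labels, the kit was Illumina's stranded TruSeq. GRCm38 (mm10), HTSeq 0.12.3, SAMtools 1.10 and STAR 2.7.5c appear in the submitters' processing notes; annotation release and strand setting are not given in the sources used here. The authors deposited raw counts per gene and FPKM per gene for 48795 genes. Over 9821 abundant genes the deposited FPKM were checked to be the counts times a factor per gene and a factor per library, to within 7.11e-15 (natural log). No library was a copy of another: for the 169 same-group pairs, chi-square divided by its degrees of freedom was 4.10 to 30.7.

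The counts were fitted with edgeR 4.0.16 (R 4.3.3): filterByExpr by genotype (20010 genes kept, with 99.963% of the counts), TMM, genotype and sex as terms, all 48 mice in 1 fit, and the quasi-likelihood F-test, adjusted by Benjamini-Hochberg over all genes tested and called under 0.05. Interaction terms tested differences between effects. The fit was tested on simulated data. CPM use TMM-scaled library sizes. Covariation used log2 CPM (prior count 1) less genotype-by-sex means, two-sided permutation tests (100000 permutations within genotype and sex) in Python 3.11.15 with numpy 2.4.6, and Pearson and Spearman coefficients. P-values measure the spread between mice. At 35.9 M to 64.5 M reads per library, each clock gene had at least 564 counts in each library.

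All 10 genes are named. Of the further pathway list the 2 genes with the smallest p are named in each comparison, and for Dbp and Arntl the 8 genes with the highest and the 4 with the lowest r, at a mean CPM of at least 1, predicted gene symbols left out. Some genes that this rule names are not reported here. The genes, lists and tests were chosen with earlier results of these data known. The alternatives tried were DESeq2 1.42.0, RLE size factors, other low-count filters (none, or 7 or more mice at a CPM of 1 or more), limma 3.58.1 on voom values with sample quality weights or on log2 of the deposited FPKM plus 0.1 or 1, plate column, a replicate block, a random block for the stem of the column name, libraries left out, and each sex apart.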

Additional observations from a re-analysis of the deposited data

Results flagged for a closer look

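In each of the 60 combinations of a clock gene and a group, the highest and the lowest mouse were compared with the others of the group by Dixon's ratio, the gap to the nearest mouse over the whole range. Chance would pass about 1 in 20 combinations, and 3 of the 60 passed, each in a group of 8 mice with a critical ratio of 0.526. Arntl was 34.7 CPM in Q140 x Msh3+/- female 1, the lowest of its group, with the nearest mouse at 42.1 CPM (ratio 0.746). Per3 was 102 CPM in Q140 male 2, the highest of its group, with the nearest at 85.5 CPM (ratio 0.6). Npas2 was 63.3 CPM in Q140 male 4, also the highest, with the nearest at 56.7 CPM (ratio 0.541).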

How the results depend on the processing

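In the genotype comparisons and in both tests of the sex effect between groups, the count of clock genes called stayed at 0 under every alternative that was run. For males against females the count of 1, Cry2, became 0 in mice with Q140 only, 0 in mice without Q140 only and 0 without the 4 Q140-labelled libraries low in Abhd1, an alternative chosen after seeing the data; by its construction each of these holds fewer mice. The Per1 value in Q140 against WT was 0.1212 in females only, against -0.3328 in all mice; the cause was not tested. It was -0.3375 with a replicate block. Over all pairs of mice with the same number and sex in other groups (115 pairs), deviations over all genes correlated at -0.244 to 0.109, and 10 of 48 mice matched best with a mouse of their own number, so the numbers were not taken to pair the mice. With the replicate block, number shared by both sexes (chosen after seeing the data), Cry2 in males against females was 0.0982 (adjusted p = 0.0110), and the block changed no other call; the block within sex was not run for this comparison, since it leaves the sex term with no estimate. The count of correlated pairs, 16, was 6 in females only and 10 in males only, with 24 mice each, was 16 with the replicate block and lay between 14 and 20 otherwise. All 16 correlations kept their sign in each of 14 alternatives, each run on all or some of the mice by which the pairs were picked. Over all genes, 1112 were called for sex, 704 in mice without Q140 only, 22 in mice with Q140 only and 1436 by DESeq2. For Q140 against WT 2 were called (1 to 3 in the alternatives), for Q140 x Msh3+/- against Msh3+/- 3 (0 to 5), for Q140 x Msh3-/- against Msh3-/- 0 (0 to 12), for Msh3+/- against WT 5 (1 to 12), for Msh3-/- against WT 7 (5 to 14), for Q140 x Msh3+/- against Q140 4 (1 to 5) and for Q140 x Msh3-/- against Q140 9 (3 to 10). Depth did not limit the clock genes, each with at least 564 counts in each library. The spread of Per1 and Per2 did: the SE of their log2 fold change in Q140 against WT was 0.16 and 0.15, against 0.04 for Clock.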

Other observations

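A single mouse stood at the end of several genes at once. Relative to its genotype and sex, Q140 x Msh3-/- male 4 was the highest of the 48 mice in Arntl and in Clock and the lowest in Dbp, by 0.19, 0.26 and -0.45 on the log2 scale; it is also among the 3 that lie apart on component 2 over all genes. Msh3-/- male 4 was the lowest in Per2 (-0.62) and in Cry1 (-0.48). Msh3+/- female 5 was the highest in Per2 (0.43) and the lowest in Clock (-0.13), and Msh3+/- male 3 was the highest in Per1 (0.62) and in Cry2 (0.15).

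The column names carry 27 stems, of which 15 are shared by 2 or more mice, and the labels do not say what a stem stands for. The mean difference in log2 units between the 28 pairs of mice that share a stem was 0.265 for Per1, against 0.344 between the other 1100 pairs. It was 0.289 against 0.302 for Per2, 0.101 against 0.121 for Per3, 0.156 against 0.187 for Cry1 and 0.0758 against 0.0835 for Cry2. For Clock it was 0.0839 against 0.0735, the gene in which pairs sharing a stem were farther apart. These differences were not tested, and the share of all tested genes that were closer by stem was not counted.

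Some pairs that did not pass over the 48 mice had r of opposite sign in the sexes, with 24 mice each. Nr1d1 and Dbp were at -0.264 in males and 0.495 in females, Per1 and Dbp at -0.377 and 0.520, and Arntl and Per1 at 0.593 and -0.202. These pairs were chosen after their values were seen, and the differences were not tested.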
